A study of Rattus norvegicus with 35 samples.

Results

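Collagen chains and the enzymes and helpers that turn them into cross-linked fibrils were followed in the rat left ventricle after ligation of the abdominal aorta. The set was chosen by symbol, as every gene of the probe annotation named Col, a number, a and a number, together with Lox, Loxl1 to Loxl4, Plod1 to Plod3, P4ha1 to P4ha3, P4hb, Serpinh1, Bmp1 and Pcolce. It came to 40 of the 13337 genes with a symbol, of which 25 encode collagen chains and 15 encode processing proteins. Male Wistar rats had the aorta tied off or underwent a sham operation, and the heart was taken on day 1, 6 or 42. RNA of the left ventricle was hybridised to Illumina BeadChips, 1 array per sample, with 6 ligated and 6 sham samples on each day except for 5 ligated samples on day 6. The labels name no genetic change and no drug in any group. They number the samples of a group as replicates without saying that each is a separate animal, so the p-values measure the spread between these samples.

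Collagens are built from triple-helical chains that are hydroxylated on proline and lysine and folded in the endoplasmic reticulum, trimmed of their propeptides outside the cell, and joined into fibrils or networks by lysyl oxidases. In the heart, fibroblasts make most of the fibrillar types I and III, which form the interstitial scaffold, while types IV, XV and XVIII belong to basement membranes around myocytes and vessels. Pressure overload is a classic setting of interstitial and perivascular collagen deposition in the ventricle.

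All values below are log2 normalised intensities of the gene's probe, or differences of them, ligated minus sham, ± standard error (SE). A gene is called raised or lowered where the limma test within the day gave a Benjamini-Hochberg adjusted p under 0.05 over all probes tested. Probes entered the test of a day when they were above the negative controls (detection p under 0.01) on at least 5 arrays of that day. Each array carries 22523 probes, and the share detected ran from 32.8% to 40.3%. Of 11 cardiomyocyte markers on the array, such as the myosin chain Myh6 and the troponin Tnnt2, 11 were tested on each day, which fits the labelled tissue. Fewer cells of a type and less RNA per cell cannot be told apart in whole tissue. Each day has a BeadChip of its own. On days 1 and 42 ligated samples fill its positions A to F and sham samples G to L, and there the effect of position cannot be told apart from that of ligation. On day 42 the scanner brightness (75th percentile of intensity) also differed, at 161 to 273 units in ligated and 259 to 348 in sham arrays. On day 1 it leaned the other way, at 208 to 308 in ligated and 199 to 240 in sham arrays. The day 6 ranges were 185 to 375 and 228 to 320. The part of brightness in the results was not tested beyond the fits given below. Scaling the arrays by their median in place of quantile normalisation moved the median change of all probes to 0.20 on day 1, -0.08 on day 6 and -0.47 on day 42, against -0.03, -0.04 and -0.01.

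On day 1, 24 of the 40 genes could be tested, and 13 were raised and 1 was lowered. Over all genes tested that day, 12.9% were raised and 16.2% lowered, together 29.1%. On day 6, 26 genes were tested, 10 were raised and 0 lowered, against 5.95% raised and 5.79% lowered over all genes, together 11.7%. On day 42, 24 genes were tested, 5 were raised and 1 was lowered, against 6.81% raised and 7.9% lowered over all genes, together 14.7%. The median change of the tested members was 0.42, 0.49 and 0.19 on the 3 days, beside -0.03, -0.04 and -0.01 for all genes. The processing proteins were raised in 8 of 12, 6 of 13 and 3 of 12 tested cases, and the collagen chains in 5 of 12, 4 of 13 and 2 of 12. Ligated and sham arrays did not overlap for 9 members on day 1, 9 on day 6 and 2 on day 42, where 10.2%, 8.67% and 6.08% of all genes did not.

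These counts moved with the scaling and with single arrays. Under median scaling 15 members were raised and 0 lowered on day 1, 2 (Col8a1 and Col18a1) raised and 0 lowered on day 6, and 1 (Col8a1) raised and 7 lowered on day 42, when the median of all probes had itself moved to -0.47. Over all 8236, 8492 and 8351 probes tested, median scaling gave 1714, 50 and 81 raised and 328, 82 and 4629 lowered. With array brightness as a covariate the member calls numbered 8, 11 and 0, and on day 1 those of Col15a1, Col5a1, Col5a2, Lox, Loxl1, P4hb and Plod3 were lost. Over all probes that fit called 1205, 1431 and 3, against 2364, 964 and 1260 as reported, so nearly all calls of day 42 were lost with it. Left-out arrays brought the day 6 count to 5 (without ligated replicate 5) or 6 (without sham replicate 5). They brought the day 42 count to 2 (without ligated replicate 3) or 3 (without ligated replicate 5 or sham replicate 1, 2 or 3).

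**Figure D1:**
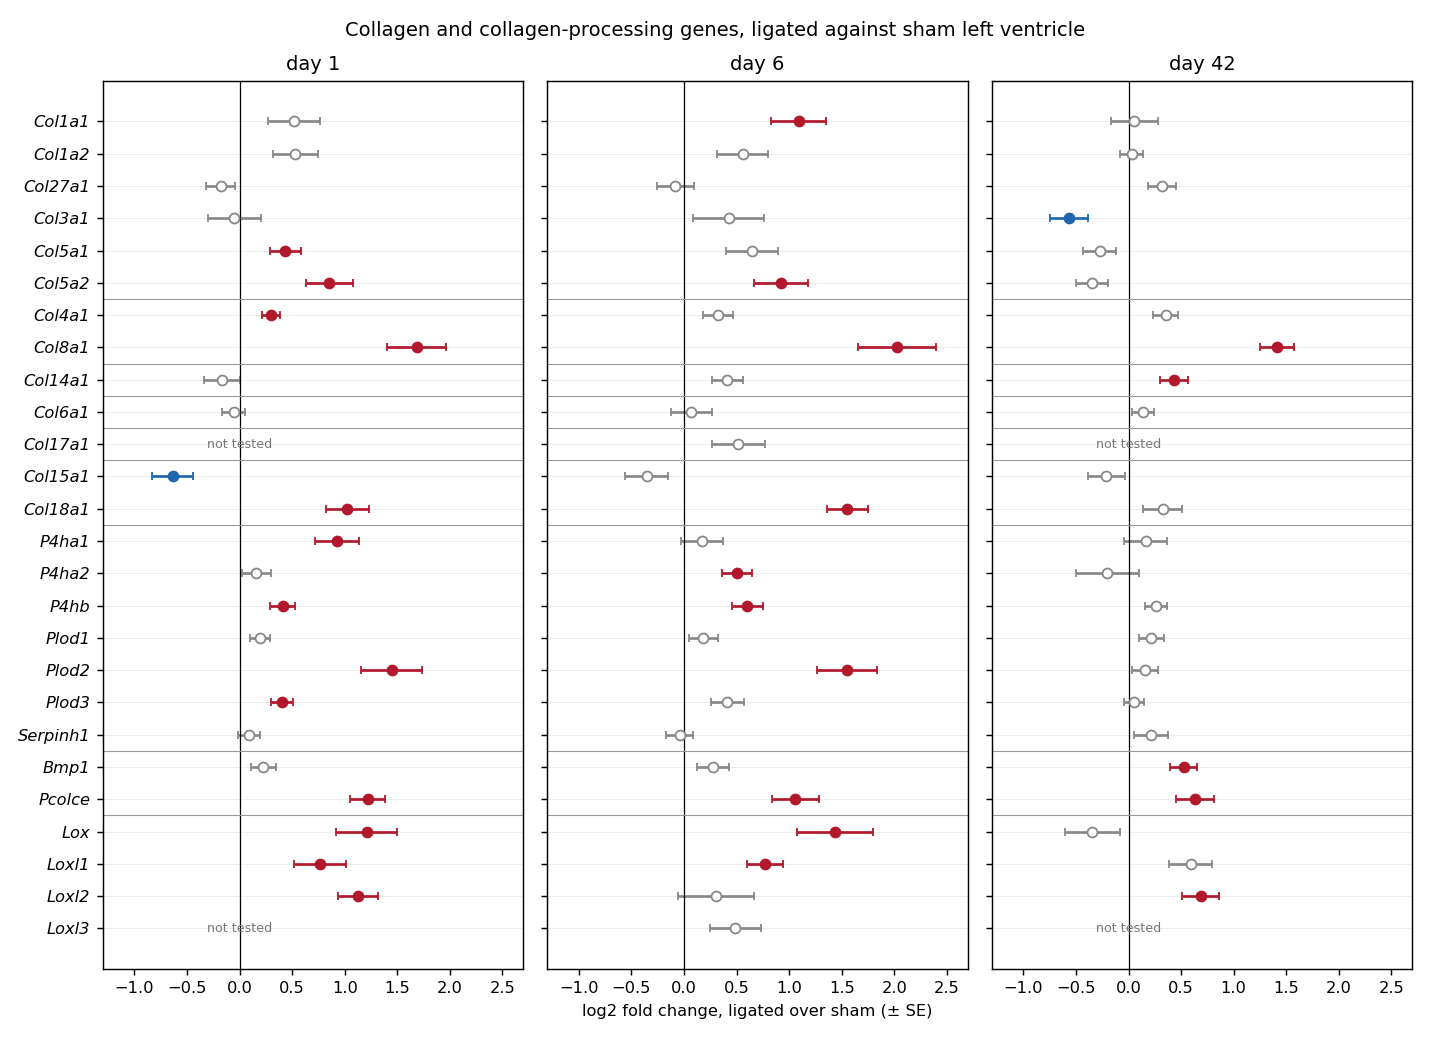
Log2 fold change of ligated over sham (x axis, bars ± SE) for the 26 genes tested on at least 1 day (y axis, grouped by role), with 1 panel per day. Red points were raised, blue points lowered and open points did not pass the threshold: 13 were raised on day 1, 10 on day 6 and 5 on day 42, and Col8a1 has the highest value on each day.

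The 14 genes tested on no day were Col2a1, Col11a2 and Col5a3 among fibrillar chains, Col4a3, Col4a4 and Col4a5 of basement membranes, Col6a2, Col6a4 and Col7a1, the fibril-associated Col9a2, the transmembrane Col13a1 and Col23a1, and the enzymes Loxl4 and P4ha3. None of them was detected on more than 2 arrays of any group. Type VI collagen is assembled with the Col6a2 chain, yet its probe was not well above background on any array while that of Col6a1 was on all, so an undetected probe is not read here as an absent transcript. The transmembrane chain Col17a1 and the oxidase Loxl3 were tested on day 6 alone, where neither passed. On day 1, 4 of 6 ligated arrays detected Loxl3 and 0 of 6 sham arrays did, and for Col17a1 these numbers were 3 and 0.

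Type VIII collagen was the member that changed most. Col8a1 encodes a short-chain collagen that forms hexagonal networks in vessel walls and beneath endothelium. On day 1 its level was 8.98, 9.87 and 10.39 (lowest, median and highest) in sham arrays and 10.86, 11.38 and 12.48 in ligated arrays. The sham levels of day 6 were 8.70, 9.22 and 10.29, and the 5 ligated arrays read 10.93, 12.17, 10.68, 10.63 and 12.36. The sham levels of day 42 were 8.86, 9.20 and 9.45 and the ligated levels 10.26, 10.57 and 11.06. Every ligated array lay above every sham array of its day. The changes were 1.69 ± 0.28 (3.21-fold, adjusted p = 0.00157) on day 1, 2.02 ± 0.37 (4.07-fold, adjusted p = 0.0067) on day 6 and 1.42 ± 0.16 (2.67-fold, adjusted p = 0.00027) on day 42. Under median scaling the day 42 change was 0.90 against -0.47 for all probes and still passed, and with array brightness as a covariate it was 1.21 and did not (adjusted p = 0.156).

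**Figure D2:**
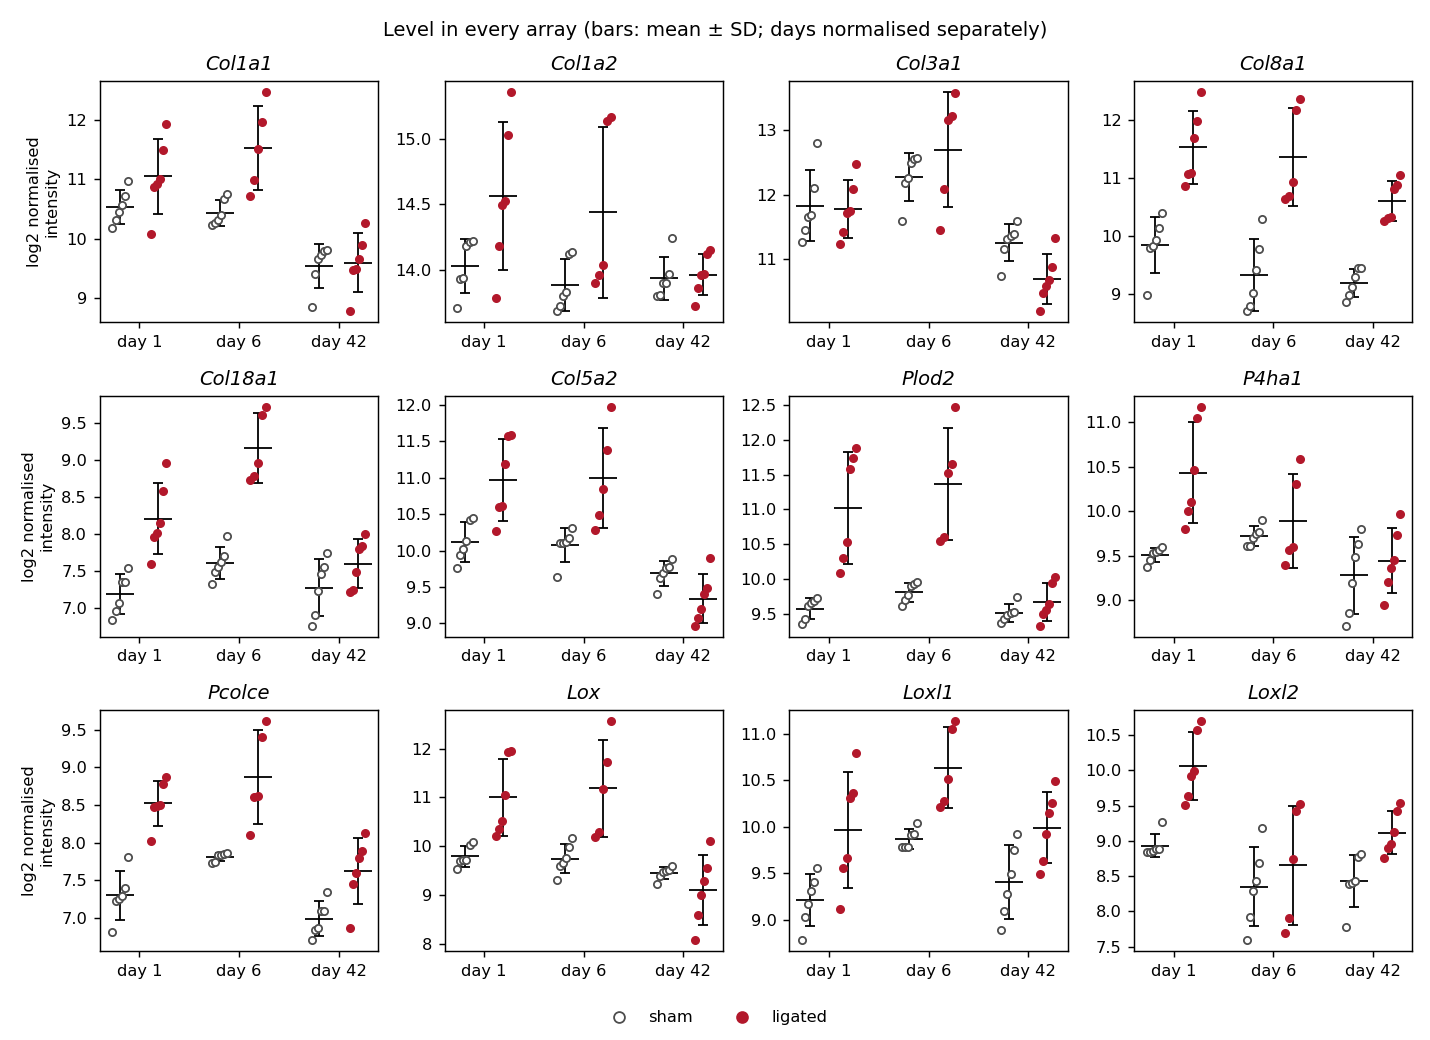
Log2 normalised intensity (y axis) of 12 members in every array by day (x axis), with sham arrays open and ligated arrays filled and sorted by value within a group, and bars for mean ± SD. The days were normalised separately, so levels are compared within a day; for Col8a1 the ligated arrays lie above all sham arrays on each day, and for Plod2 they do so on days 1 and 6.

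Col4a1, a chain of the main basement membrane collagen, was raised on day 1 by a small amount with a small spread. Its sham levels were 11.54, 11.68 and 11.88 and its ligated levels 11.89, 11.99 and 12.11, with no overlap, a change of 0.30 ± 0.08 (adjusted p = 0.0172). On days 6 and 42 its changes were of like size, 0.32 ± 0.14 and 0.36 ± 0.12, and did not pass (adjusted p = 0.153 and 0.0565).

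The multiplexins Col18a1 and Col15a1, basement membrane collagens whose ends are released as the vessel-acting fragment endostatin and a related fragment, moved in opposite directions. Col18a1 read 6.83, 7.20 and 7.53 in sham and 7.59, 8.08 and 8.95 in ligated arrays on day 1. By day 6 the sham levels were 7.32, 7.59 and 7.97, and the ligated arrays read 8.72, 9.61, 8.78, 8.96 and 9.72. The groups did not overlap on either day. Col18a1 was raised by 1.03 ± 0.20 (2.04-fold, adjusted p = 0.00347) on day 1 and by 1.55 ± 0.20 (2.93-fold, adjusted p = 0.000734) on day 6, and stood at 0.32 ± 0.19 on day 42 (adjusted p = 0.239). Col15a1 read 10.61, 10.78 and 10.92 in sham and 9.28, 10.12 and 10.70 in ligated arrays on day 1, where 4 of 6 ligated arrays lay below the lowest sham array. It was lowered by -0.64 ± 0.20 as a signed change (adjusted p = 0.0272) and stood at -0.35 ± 0.20 and -0.21 ± 0.18 on the later days, neither past the threshold. The call for Col15a1 on day 1 passed in 7 of 12 fits that left out 1 array and was lost without ligated replicate 3 or 4 or sham replicate 1, 4 or 6 (adjusted p = 0.0503 to 0.0576). It was also lost under median scaling, with a change of -0.40 against 0.20 for all probes.

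Among the fibrillar chains, the tested type V chains were raised on day 1 and 1 of the 2 type I chains, Col1a1, on day 6, while type III was not raised on any day. Col1a1 and Col1a2 encode the chains of type I collagen, the stiff main fibril of the ventricle, and Col3a1 the chain of the more pliable type III. On day 1 Col1a1 read 10.18, 10.50 and 10.97 in sham and 10.08, 10.96 and 11.93 in ligated arrays. The ligated group ranged both below and above the sham group, and the change of 0.51 ± 0.25 did not pass (adjusted p = 0.13). In the day 6 groups, sham levels were 10.23, 10.36 and 10.74, and the ligated arrays read 10.71, 12.46, 11.51, 10.98 and 11.96. Replicate 1 lay within the sham range and the other 4 above it, replicate 2 highest. The change was 1.09 ± 0.26 (2.13-fold, adjusted p = 0.0209). It was not past the threshold without ligated replicate 5 (adjusted p = 0.0558) or under median scaling (0.98, adjusted p = 0.152). On day 42 the change was 0.06 ± 0.22 (adjusted p = 0.886), with ligated levels of 8.78, 9.58 and 10.27 inside a span much like that of the sham arrays, 8.86, 9.69 and 9.81.

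Col1a2 did not pass on any day. On day 1 it read 13.71, 14.06 and 14.22 in sham and 13.79, 14.51 and 15.36 in ligated arrays, and on day 6 the ligated arrays read 14.03, 15.16, 13.96, 13.90 and 15.13 beside sham levels of 13.68, 13.81 and 14.13. On day 6, ligated replicates 2 and 5 stood apart above all other arrays of the day. The changes were 0.53 ± 0.22 (adjusted p = 0.0798), 0.56 ± 0.24 (adjusted p = 0.152) and 0.03 ± 0.11 (adjusted p = 0.873). Its scanner intensity reached 15.5 on the log2 scale where the brightest probe of any array read 16.2, so that changes of this gene may be compressed.

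Col3a1 read 11.27, 11.67 and 12.80 in sham and 11.24, 11.73 and 12.47 in ligated arrays on day 1, a change of -0.05 ± 0.25 (adjusted p = 0.902). On day 6 the ligated arrays read 11.45, 13.23, 13.17, 12.09 and 13.58 around sham levels of 11.59, 12.38 and 12.56, a change of 0.43 ± 0.34 (adjusted p = 0.431). The ligated arrays of day 6 spread wider than the sham arrays on both sides, with replicate 1 below all of them and replicate 5 highest. By day 42 the sham levels were 10.74, 11.33 and 11.60 and the ligated levels 10.19, 10.63 and 11.33, with 4 of 6 ligated arrays below the lowest sham array. Col3a1 was lowered there, at -0.57 ± 0.18 (adjusted p = 0.0475, 1.48-fold lower). The call passed in 2 of 12 fits that left out 1 array, those without ligated replicate 4 and without sham replicate 4, and in the other 10 the adjusted p ran from 0.0586 to 0.0995. It did not pass with the deposited series matrix values either. Under median scaling it passed with a change of -1.07 (adjusted p = 0.000451), against -0.47 for all probes, and with array brightness as a covariate the change was -1.03 and did not pass (adjusted p = 0.224).

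The balance of types I and III was examined within arrays as the difference of the log2 values of 2 probes, chosen after their values were seen. In an exact two-sided permutation test, the difference of Col1a1 and Col3a1 was 0.66 higher in ligated than in sham arrays on day 6 (p = 0.026), 0.56 on day 1 (p = 0.225) and 0.62 on day 42 (p = 0.126). The difference of Col1a2 and Col3a1 was 0.60 higher on day 42 (exact p = 0.0238), and that of Col1a1 and Col1a2 was 0.53 higher on day 6 (exact p = 0.013). Over the 9 comparisons of this kind the lowest adjusted value was 0.078, so none passed.

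Type V collagen, which starts type I fibrils and limits their width, was raised on day 1 in both tested chains. The probe of a further chain, Col5a3, stood above the negative controls on 2 ligated arrays and 0 sham arrays that day, too few for a test. Col5a2 read 9.76, 10.07 and 10.44 in sham and 10.27, 10.90 and 11.59 in ligated arrays on day 1. On day 6 the sham levels were 9.63, 10.11 and 10.31, and the ligated arrays read 10.84, 11.98, 10.48, 10.29 and 11.39. On each of these days 1 ligated array lay within the sham range and the others above it. The changes of Col5a2 were 0.85 ± 0.22 (1.81-fold, adjusted p = 0.0133) on day 1, 0.92 ± 0.26 (1.89-fold, adjusted p = 0.0376) on day 6 and -0.35 ± 0.15 (adjusted p = 0.118) on day 42. Col5a1 read 9.86, 10.11 and 10.39 in sham and 10.12, 10.53 and 11.08 in ligated arrays on day 1, with 4 of 6 ligated arrays above the sham range, and was raised by 0.44 ± 0.14 (adjusted p = 0.0365). It stood at 0.65 ± 0.25 on day 6 (adjusted p = 0.106) and -0.27 ± 0.16 on day 42 (adjusted p = 0.239). The call for Col5a1 on day 1 was lost without ligated replicate 3 or 4 or without any sham replicate other than 3 (adjusted p = 0.0573 to 0.0766). That for Col5a2 on day 6 was lost without ligated replicate 2 or 5 or any 1 of the 6 sham arrays (adjusted p = 0.0551 to 0.0903).

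Of the remaining chains, Col14a1, a collagen that sits on the surface of fibrils, was raised on day 42. It read 10.60, 10.91 and 11.36 in sham and 11.18, 11.30 and 11.65 in ligated arrays, with 3 of 6 ligated arrays above the sham range, a change of 0.44 ± 0.13 (adjusted p = 0.0406). This call passed in 3 of 12 fits with 1 array left out, those without ligated replicate 1 or 4 or sham replicate 5, and the adjusted p otherwise ran from 0.0543 to 0.0928. Under median scaling its value on day 42 was -0.05, against -0.47 for all probes. On days 1 and 6 its change was -0.17 ± 0.17 and 0.41 ± 0.15, not past the threshold. Col6a1, a chain of the beaded filaments around cells, ran from -0.06 to 0.14 over the 3 days, and Col27a1, a fibrillar collagen best known from cartilage, from -0.18 to 0.32, without a call. Col17a1 stood at 0.52 ± 0.25 on day 6 (adjusted p = 0.197), and was detected in 3 ligated and 2 sham samples.

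Inside the cell, the lysyl hydroxylase Plod2 had the largest change of the modifying enzymes. Plod2 hydroxylates lysines in the collagen telopeptides, the sites of later cross-links. On day 1 it read 9.35, 9.63 and 9.73 in sham and 10.08, 11.06 and 11.89 in ligated arrays. The sham levels of day 6 were 9.61, 9.84 and 9.95, and the ligated arrays read 11.53, 12.48, 10.61, 10.55 and 11.65. Ligated and sham arrays did not overlap on either day, and on day 1 the ligated arrays fell into a higher run of replicates 1, 3 and 4 and a lower run of 2, 5 and 6. Plod2 was raised by 1.45 ± 0.29 (2.72-fold, adjusted p = 0.0037) on day 1 and by 1.55 ± 0.29 (2.94-fold, adjusted p = 0.0067) on day 6. On day 42 it read 9.37, 9.50 and 9.75 in sham and 9.33, 9.60 and 10.04 in ligated arrays, and its change was 0.16 ± 0.13 (adjusted p = 0.399). The day 6 call was lost under median scaling, where the change was 1.46 (adjusted p = 0.0714).

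The related enzymes differed less. Plod3, which also adds sugars to hydroxylysine, read 9.42, 9.45 and 9.61 in sham and 9.64, 9.87 and 10.21 in ligated arrays on day 1, without overlap, and was raised by 0.41 ± 0.11 (adjusted p = 0.0129). On day 6 its ligated arrays again lay above all sham arrays, but the change of 0.41 ± 0.16 did not pass (adjusted p = 0.113). Plod1, which acts on lysines of the helix, stood between 0.19 and 0.22 on the 3 days and passed on none.

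The prolyl hydroxylase that stabilises the triple helix has a catalytic subunit, P4ha1 or P4ha2, and a partner, P4hb, which is also a protein disulphide isomerase. P4ha1 read 9.37, 9.53 and 9.59 in sham and 9.80, 10.28 and 11.18 in ligated arrays on day 1, without overlap and with replicates 1, 3 and 4 highest. It was raised by 0.93 ± 0.21 (1.9-fold, adjusted p = 0.00657). On day 6 its ligated arrays read 9.56, 10.59, 9.60, 9.40 and 10.30, on both sides of the sham levels of 9.61, 9.72 and 9.90. The change there was 0.17 ± 0.20 (adjusted p = 0.61), and 0.16 ± 0.21 on day 42 (adjusted p = 0.613). P4ha2 was raised on day 6 by 0.50 ± 0.14 (adjusted p = 0.0394), where its ligated arrays read 6.93, 7.08, 7.13, 6.96 and 7.41 above sham levels of 6.15, 6.66 and 6.87 without overlap. It stood at 0.16 ± 0.14 on day 1 and -0.20 ± 0.30 on day 42, neither past the threshold. The day 6 call of P4ha2 passed in 3 of 11 fits with 1 array left out (without ligated replicate 1 or 4 or sham replicate 1) and otherwise had adjusted p = 0.0546 to 0.0929.

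P4hb read 12.41, 12.47 and 12.83 in sham and 12.60, 13.01 and 13.21 in ligated arrays on day 1. On day 6 its sham levels were 12.81, 12.98 and 13.18, and its ligated arrays read 13.24, 14.07, 13.39, 13.46 and 13.73. On day 1, 5 of 6 ligated arrays lay above the sham range, and on day 6 all 5 did. P4hb was raised by 0.41 ± 0.12 (adjusted p = 0.0222) and 0.60 ± 0.15 (adjusted p = 0.0222), and stood at 0.26 ± 0.11 on day 42 (adjusted p = 0.0986). The day 1 call was lost without ligated replicate 3 or sham replicate 6 (adjusted p = 0.0512 and 0.0518), and the day 6 call without replicate 5 of either group (adjusted p = 0.0532 and 0.0555). Serpinh1, the chaperone that binds folded procollagen, changed by 0.09 ± 0.11, -0.04 ± 0.13 and 0.22 ± 0.16 on the 3 days and passed on none. Its ligated arrays read 6.63, 7.07 and 7.09 (lowest, median and highest) on day 1 beside 6.76, 6.86 and 7.17 in sham arrays.

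P4ha1, P4ha2 and Plod2 are known targets of hypoxia-inducible factors in human and mouse cells, which bind the core ACGTG of a hypoxia response element. The promoter windows of these hydroxylases, from 250 bases before to 50 after the annotated start, are printed here from RefSeq (build GRCr8, plus strand) because Plod2 had the largest change among the enzymes on days 1 and 6, and that of Col8a1 because it was raised on every day. Capitals mark ACGTG or its reverse complement CACGT, and the 2 words were searched on both strands.
Plod2, chr8:101964068-101964367: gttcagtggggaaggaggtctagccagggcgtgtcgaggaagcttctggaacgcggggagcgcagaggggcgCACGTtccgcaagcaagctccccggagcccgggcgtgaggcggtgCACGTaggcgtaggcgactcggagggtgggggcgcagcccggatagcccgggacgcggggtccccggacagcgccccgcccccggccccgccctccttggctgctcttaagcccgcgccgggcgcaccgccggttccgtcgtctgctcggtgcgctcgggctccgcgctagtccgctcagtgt
P4ha1, chr20:27844796-27845095: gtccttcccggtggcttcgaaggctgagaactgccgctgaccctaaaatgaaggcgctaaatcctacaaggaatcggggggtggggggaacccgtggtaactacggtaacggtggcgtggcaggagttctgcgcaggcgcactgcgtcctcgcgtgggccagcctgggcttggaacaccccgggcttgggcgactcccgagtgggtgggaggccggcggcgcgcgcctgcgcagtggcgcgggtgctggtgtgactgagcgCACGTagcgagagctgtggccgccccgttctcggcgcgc
P4ha2, chr10:38743644-38743943: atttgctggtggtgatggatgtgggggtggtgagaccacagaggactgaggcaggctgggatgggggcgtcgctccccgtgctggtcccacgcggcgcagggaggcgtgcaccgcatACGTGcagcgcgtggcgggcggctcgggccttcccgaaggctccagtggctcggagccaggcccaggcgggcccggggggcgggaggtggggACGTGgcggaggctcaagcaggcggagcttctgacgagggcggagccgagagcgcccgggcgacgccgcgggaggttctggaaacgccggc
Col8a1, chr11:56246532-56246831: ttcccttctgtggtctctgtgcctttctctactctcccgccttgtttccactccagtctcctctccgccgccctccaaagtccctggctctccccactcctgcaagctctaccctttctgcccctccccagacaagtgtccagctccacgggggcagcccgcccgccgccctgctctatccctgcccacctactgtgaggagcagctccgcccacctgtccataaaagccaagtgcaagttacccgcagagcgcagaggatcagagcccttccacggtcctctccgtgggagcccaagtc
The word occurs 2 times in the Plod2 window, 1 time in that of P4ha1, 2 times in that of P4ha2 and not in that of Col8a1. A window was at hand for 32 members, 20 of them among the 26 tested, and these hydroxylases are the 3 of those 20 (15%) whose window holds the word, against 19.3% of all 33469 windows. The 8 members with no window, Lox and Loxl2 among them, could not be searched. The windows of P4ha1 and Col8a1 lie inside the annotated span of the gene. A match of letters is a description of the window and no evidence of binding.

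Outside the cell, the proteinase Bmp1 removes the carboxy-terminal propeptide of the fibrillar collagens, and Pcolce binds that propeptide and speeds the cut. Pcolce was raised on each day. It read 6.82, 7.28 and 7.81 in sham and 8.02, 8.49 and 8.88 in ligated arrays on day 1. By day 6 the sham levels were 7.73, 7.84 and 7.86, and the ligated arrays read 8.10, 9.61, 8.62, 8.60 and 9.41. On day 42 the sham levels were 6.70, 6.98 and 7.35 and the ligated levels 6.87, 7.69 and 8.13. The groups did not overlap on days 1 and 6, and on day 42 ligated replicate 1 lay within the sham range. The changes were 1.22 ± 0.17 (2.33-fold, adjusted p = 0.000592), 1.06 ± 0.23 (2.08-fold, adjusted p = 0.0128) and 0.63 ± 0.18 (1.55-fold, adjusted p = 0.0353). The day 42 call passed in 4 of 12 fits with 1 array left out, those without ligated replicate 1 or 6 or sham replicate 5 or 6, and had adjusted p = 0.0503 to 0.0761 otherwise. With array brightness as a covariate the day 42 value was -0.08, and under median scaling 0.15, neither past the threshold.

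Bmp1 itself was raised on day 42 only, which does not show that its effect differed between days. Its sham levels were 6.35, 6.65 and 6.78 and its ligated levels 6.80, 7.07 and 7.56, without overlap, a change of 0.52 ± 0.13 (1.44-fold, adjusted p = 0.0176). On days 1 and 6 it stood at 0.23 ± 0.12 (adjusted p = 0.165) and 0.28 ± 0.15 (adjusted p = 0.251). Under median scaling its day 42 value was 0.08 against -0.47 for all probes, and did not pass.

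Of the lysyl oxidases, which convert lysines of collagen and elastin into the aldehydes that cross-link them, Lox, Loxl1 and Loxl2 were all raised on day 1. Lox, the main enzyme of fibrillar collagen, read 9.52, 9.72 and 10.09 in sham and 10.21, 10.78 and 11.96 in ligated arrays on day 1. In the day 6 groups, sham levels were 9.31, 9.71 and 10.17, and the ligated arrays read 11.17, 12.56, 10.18, 10.29 and 11.72. The sham levels of day 42 were 9.23, 9.48 and 9.58 and the ligated levels 8.07, 9.15 and 10.11. The groups did not overlap on days 1 and 6, although 1 ligated array of day 6 lay just above the highest sham array, and on day 42 the ligated arrays spread both above and below the narrow sham group. Lox was raised by 1.21 ± 0.29 (2.31-fold, adjusted p = 0.00859) on day 1 and 1.44 ± 0.36 (2.71-fold, adjusted p = 0.0242) on day 6, and stood at -0.34 ± 0.26 on day 42 (adjusted p = 0.369). The day 6 call was lost without replicate 5 of either group (adjusted p = 0.0509 and 0.0619) and under median scaling (1.35, adjusted p = 0.138).

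Loxl1, which serves mainly elastic fibres, read 8.78, 9.24 and 9.56 in sham and 9.11, 9.99 and 10.80 in ligated arrays on day 1, with 4 of 6 ligated arrays above the sham range. On day 6 the sham levels were 9.78, 9.85 and 10.04, and the ligated arrays read 10.21, 11.14, 10.28, 10.52 and 11.06, all above the sham range. It was raised by 0.76 ± 0.25 (adjusted p = 0.0328) and 0.77 ± 0.17 (adjusted p = 0.0159), and stood at 0.59 ± 0.20 on day 42 (adjusted p = 0.0619). A second probe of Loxl1 passed on each day, at 1.00 ± 0.21, 1.04 ± 0.21 and 0.81 ± 0.18 (adjusted p = 0.00441, 0.00947 and 0.0113), so the probes differ in their call on day 42. The day 1 call of the first probe was lost without ligated replicate 1, 3 or 4 or sham replicate 1, 2, 4 or 5 (adjusted p = 0.0508 to 0.0757).

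Loxl2, which cross-links type IV collagen in basement membranes and also fibrillar collagen, read 8.84, 8.87 and 9.27 in sham and 9.52, 9.96 and 10.70 in ligated arrays on day 1, without overlap. By day 42 the sham levels were 7.78, 8.42 and 8.82 and the ligated levels 8.77, 9.04 and 9.54, with 5 of 6 ligated arrays above the sham range. Loxl2 was raised by 1.13 ± 0.19 (2.18-fold, adjusted p = 0.00157) on day 1 and 0.69 ± 0.18 (1.61-fold, adjusted p = 0.0242) on day 42. On day 6 its ligated arrays read 8.74, 9.53, 7.91, 7.69 and 9.42 against 7.59, 8.36 and 9.18 in sham arrays, with 3 of 5 inside the sham range, and the change was 0.31 ± 0.36 (adjusted p = 0.61). The day 42 call was lost without ligated replicate 3 (adjusted p = 0.0512), under median scaling (0.16, adjusted p = 0.518, against -0.47 for all probes) and with array brightness as a covariate (0.63, adjusted p = 0.527). Loxl3 stood at 0.49 ± 0.24 on day 6 (adjusted p = 0.204).

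On day 6, the only day with both operations in both sets of BeadChip positions, the 10 raised genes were compared within each set. These genes were called raised on the same arrays, so values above 0 in each set were likely beforehand and decide nothing about position. At positions A to F, with 2 ligated and 3 sham arrays, all 10 lay above 0, between 0.50 and 2.31. At positions G to L, with 3 of each, all 10 again lay above 0, between 0.48 and 2.39. Plod2 differed most between the sets, at 2.31 and 1.01.

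The raised genes of days 1 and 6 overlapped in 8 members, Col8a1, Col18a1, Col5a2, Plod2, P4hb, Pcolce, Lox and Loxl1, which are 61.5% of those raised on day 1 and 80% of those raised on day 6. Days 6 and 42 shared Col8a1 and Pcolce, 20% and 40% of their lists, and days 1 and 42 shared these and Loxl2, 23.1% and 60%. Over all genes, the raised lists of days 1 and 6 shared 24.5% and 51.4%, those of days 6 and 42 17.1% and 15.3%, and those of days 1 and 42 16.9% and 31.8%. The difference from all genes was not tested. The days share no samples.

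BeadChip position goes with ligation on days 1 and 42 but not on day 6, and each day has its own BeadChip. An effect of position cannot be told apart from a difference that involves day 6, nor an effect of the BeadChip from any difference. Whether the ligation effect itself differed between days was tested in 1 fit of all 35 arrays. Between days 1 and 6 it differed for 0 of 26 members (limma, 3 at an unadjusted p under 0.05), where 0.673% of all genes passed (0.284% higher and 0.389% lower on day 6). Between days 6 and 42 it differed for 5 of 26, all lower on day 42, where 7% of all genes passed, 3.35% higher and 3.65% lower. These were Lox (-1.78 ± 0.47, adjusted p = 0.0204), Plod2 (-1.40 ± 0.37, 0.0217), Col5a2 (-1.27 ± 0.33, 0.0169), Col18a1 (-1.23 ± 0.30, 0.0122) and Col5a1 (-0.92 ± 0.28, 0.0404). Between days 1 and 42 it differed for 3 of 26, again lower on day 42, where 8.81% of all genes passed, 4.5% higher and 4.31% lower. These were Lox (-1.55 ± 0.46, adjusted p = 0.035), Plod2 (-1.29 ± 0.37, 0.0304) and Col5a2 (-1.20 ± 0.32, 0.0239). The difference between days 42 and 6 did not pass for Col8a1 (-0.61 ± 0.43, adjusted p = 0.393), Col1a1 (-1.03 ± 0.38, adjusted p = 0.0825) or Col3a1 (-0.995 ± 0.404, adjusted p = 0.122). The median difference over the 26 members was -0.39 for days 42 and 6 and -0.36 for days 42 and 1, beside 0.01 for all genes in each.

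Single arrays bore on these counts. Without ligated replicate 2 of day 6, the calls between days 6 and 42 numbered 2, with Lox (adjusted p = 0.0541), Plod2 (adjusted p = 0.0569) and Col5a1 (adjusted p = 0.0987) no longer past the threshold. The Col5a1 call was lost in 13 of 23 fits that left out 1 array, ligated or sham (adjusted p = 0.0501 to 0.0987). Without ligated replicate 1, 3 or 4 of day 1, the calls between days 1 and 42 numbered 0. Over all 8986 probes, calls between these days also fell, from 780 to 290, 291 and 200. The call for Lox between days 1 and 42 was lost in 10 of 24 fits that left out 1 array, without single arrays of either day and either group (adjusted p = 0.0501 to 0.0751). With brightness as a covariate, 1 call between days 6 and 42 (Col5a1) and 0 between days 1 and 42 were left. Over all probes 214 and 0 were left, against 663 and 780 as reported.

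**Figure D3:**
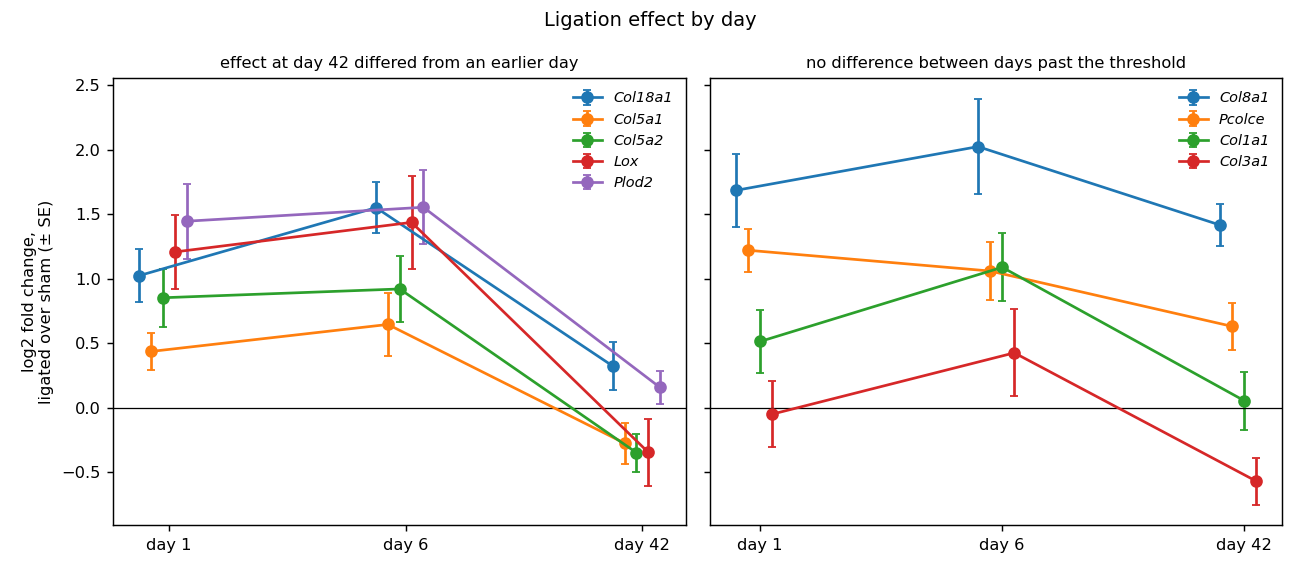
Log2 fold change of ligated over sham (y axis, bars ± SE) by day (x axis) for the 5 genes whose effect on day 42 differed from that of an earlier day (left) and for 4 genes whose effect did not pass that test (right). Lox and Plod2 stand above 1.2 on days 1 and 6 and at -0.34 and 0.16 on day 42, while Col8a1 stands at 1.42.

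The ligated arrays of a day were not alike. Taking the genes raised on day 1, the median rise over the sham mean was 1.06 to 1.55 in ligated replicates 1, 3 and 4 and 0.46 to 0.50 in replicates 2, 5 and 6. On day 6 it was 1.95 in replicate 2 and 1.56 in replicate 5, and 0.55 to 0.67 in the other 3. On day 42 it ran from 0.44 to 0.99. On days 1 and 6 the same ligated arrays had the highest marker sums of activated fibroblasts. The summed linear intensity of 5 such markers (Postn, Cthrc1, Fap, Ltbp2 and Thbs4) was 12110, 12580 and 8732 in replicates 1, 3 and 4 of day 1, 1655 to 3013 in the other ligated arrays and 583 to 1201 in sham arrays. On day 6 it was 14090 in replicate 2 and 14870 in replicate 5, 4963 to 8294 in the other ligated arrays and 745 to 1464 in sham arrays. On day 42 Cthrc1 was not tested, and the sum of the other 4 markers was 576 to 1312 in ligated and 360 to 610 in sham arrays. Other markers moved with the same day 1 arrays. Macrophage marker sums were 15280, 22690 and 20960 in replicates 1, 3 and 4 and 8361 to 12990 in the other ligated arrays, and general fibroblast marker sums were 33560, 40370 and 32620 against 46610 to 55570. On day 6 the macrophage sum was 50180 in replicate 2 and 21970 in replicate 5, with 29320 in replicate 1, where the collagen rise was among the low ones. The general fibroblast sum of day 6 was 50250 in replicate 2 and 75160 in replicate 5, beside 47960 to 63440 in the other ligated arrays, unlike day 1.

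**Figure D4:**
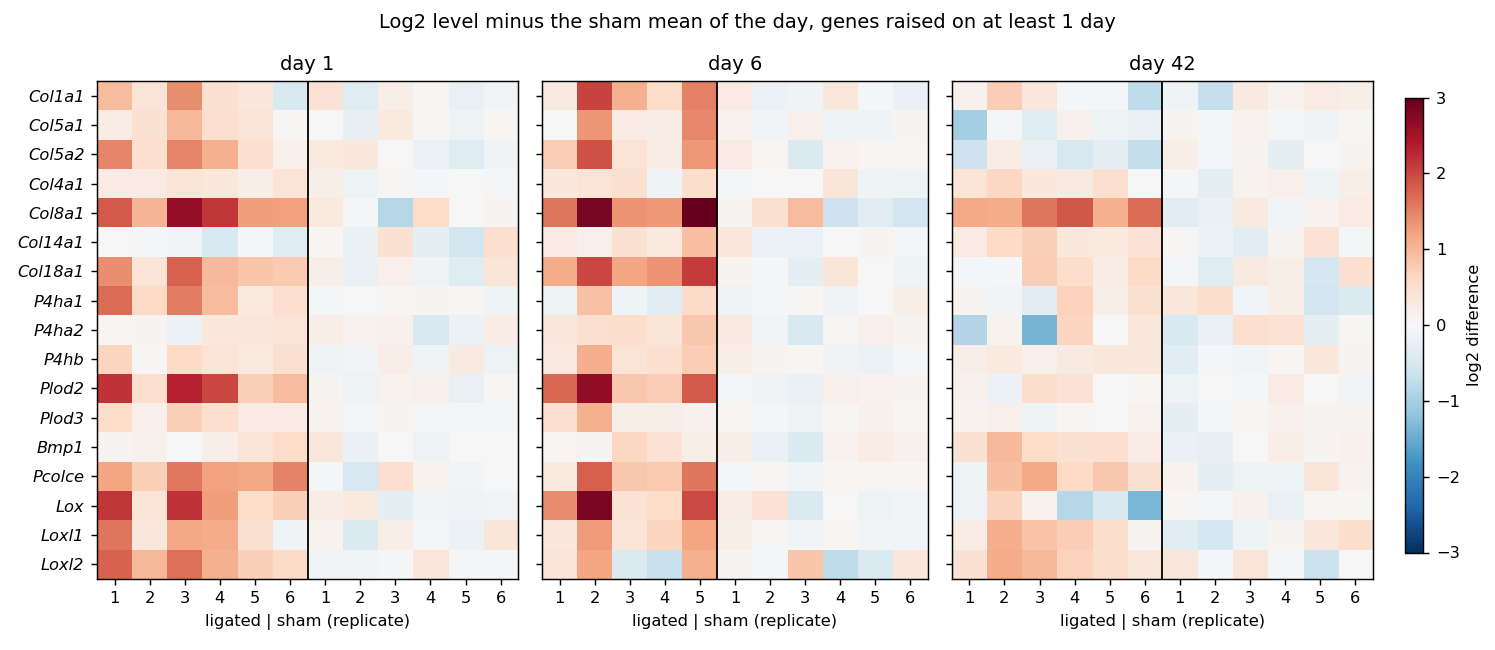
Log2 level minus the sham mean of the day (colour, capped at 3 in either direction) for the 17 genes raised on at least 1 day (rows) in each ligated and sham array (columns, by replicate number), 1 panel per day. Ligated replicates 1, 3 and 4 of day 1 and 2 and 5 of day 6 are darkest across most rows.

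Markers of cell types changed between the groups too, and their part in the collagen results was not tested. Over all genes, 12.9%, 5.95% and 6.81% were raised on the 3 days, and 16.2%, 5.79% and 7.9% were lowered. Each marker sum, here and above, holds the markers tested on its day, so the set summed can differ between days. Of the activated fibroblast markers, 3 of 5 were raised on day 1, 4 of 5 on day 6 and 2 of 4 on day 42. Among them Ltbp2 was detected on 1, 3 and 2 of 6 sham arrays of the 3 days and on every ligated array. It thus reached the 5 arrays needed for a test only through ligated arrays, and its place among the raised carries that limit. The same holds for Cthrc1 on day 6, detected on 5 ligated and 3 sham arrays. Of 12 general fibroblast markers tested, 0 were raised and 3 lowered on day 1 (Gsn, Fbln1 and Dpt), 1 was raised on day 6 (Mfap5) and 0 were called on day 42. Their sum was 32620 to 55570 in ligated and 50780 to 58970 in sham arrays on day 1 and overlapped between the groups on the later days too. Macrophage markers were raised in 4 of 11 on day 1, 9 of 11 on day 6 and 0 of 9 on day 42. Their sum was 8361 to 22690 in ligated and 5025 to 10490 in sham arrays on day 1, 9610 to 50180 and 6927 to 9008 on day 6, and 2598 to 6743 and 3686 to 6644 on day 42. Adgre1 was detected on no array of day 1. Smooth muscle and pericyte markers were raised in 3, 3 and 1 of 5 and lowered in 1, 0 and 0 (Smtn, -0.74 on day 1). Those raised were Tagln, Cspg4 and Des on days 1 and 6 and Cspg4 on day 42. Des (0.26 and 0.45) is also made by cardiomyocytes, so these counts and the sums are not read as mural cells alone. The sums of the 5 markers were 44710 to 53080 in ligated and 32760 to 39330 in sham arrays on day 6 and overlapped on day 1 (36340 to 44300 and 33450 to 36660) and day 42 (33020 to 42380 and 31210 to 40070). Mylk and Notch3 were detected on no array of any day. Of 11 cardiomyocyte markers, 1 was lowered on day 1, 0 on day 6 and 2 on day 42. Endothelial markers were called in 2 of 7, 0 of 5 and 1 of 7, and their sums overlapped on each day. On day 1 Vwf was raised (0.40) and Emcn lowered (-0.39), and on day 42 Tek was lowered (-0.77). Of 5 Schwann cell and nerve markers with a probe, only Gap43 and Cnp were tested. Both were raised on day 1, and 0 of 2 were called on days 6 and 42. Mbp, S100b and Sox10 were detected on no array of day 1. Of the epicardial markers Wt1, the 1 tested, was lowered on day 6 (above the negative controls on 1 ligated and 5 sham arrays), with Upk1b and Krt19 detected on no array.

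The genes that work with collagens were described in 4 lists. Beside their counts, the share of all genes raised was 12.9%, 5.95% and 6.81% on days 1, 6 and 42, and the share lowered 16.2%, 5.79% and 7.9%. Of 18 tested genes of folding and secretion, 8 were raised on day 1, 1 on day 6 and 3 on day 42, and 0 were lowered. The share raised on day 6, 5.56%, was near that of all genes. On day 1 the smallest p-values belonged to the chaperones Hspa5 (0.87 ± 0.13) and Hsp90b1 (1.01 ± 0.16) and to Fkbp10 (1.06 ± 0.20), a prolyl isomerase that assists Plod2. On day 6 the prolyl hydroxylase P3h2 was raised (1.18 ± 0.25), and on day 42 P3h2 (0.55 ± 0.16), Hsp90b1 (0.42 ± 0.12) and the lectin chaperone Canx (0.90 ± 0.22).

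Of the procollagen proteinases and fibril regulators, 5 of 16 were raised on day 1, 6 of 16 on day 6 and 2 of 15 on day 42, with 2, 0 and 0 lowered. The matricellular protein Postn, which binds collagen and Bmp1, was raised by 2.99 ± 0.51 on day 1 and 3.40 ± 0.32 on day 6. Cthrc1, a secreted protein of activated fibroblasts, was raised by 3.18 ± 0.33 on day 6, when 3 of 6 sham arrays detected it, and fibronectin (Fn1), on which collagen fibrils are laid down, by 2.18 ± 0.27. The proteoglycan Bgn was raised by 0.66 ± 0.12 on day 1, 1.10 ± 0.21 on day 6 and 0.84 ± 0.13 on day 42, and the transglutaminase Tgm2 by 0.50 ± 0.10, 0.41 ± 0.10 and 0.84 ± 0.13. Adamts3, Adamts14, Tll1, Tll2, Fmod and Kera were detected on no array.

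Of the genes of degradation and uptake, 2 of 9 were raised on day 1, 4 of 10 on day 6 and 1 of 10 on day 42, with 1, 0 and 1 lowered. Timp1, an inhibitor of matrix metalloproteinases, was raised by 3.24 ± 0.35, 3 ± 0.43 and 0.75 ± 0.20 on the 3 days. Timp2 was lowered on day 1 (-0.70 ± 0.19). The collagen-cleaving cathepsin Ctsk was raised by 0.55 ± 0.17 on day 1 and 0.85 ± 0.16 on day 6, beside Ctsb (0.85 ± 0.18), and Pepd, the dipeptidase that recycles proline, was lowered on day 42 (-0.37 ± 0.12). The collagenase Mmp13 and the gelatinase Mmp2 were detected on no array. Of the collagen receptors, 3 of 5 were raised on day 1, 2 of 5 on day 6 and 0 of 4 on day 42, with 0, 1 and 0 lowered. The integrin chain Itgb1 was raised by 0.77 ± 0.17 and 0.87 ± 0.12 on days 1 and 6, and the hyaluronan and collagen receptor Cd44 by 0.91 ± 0.25 on day 1. The receptor kinase Ddr1 was called raised on days 1 and 6 too, but only 2 and 1 of 6 sham arrays detected it, against 6 of 6 and 4 of 5 ligated arrays, so its sham level was mostly not above background. Itga1, the integrin chain that pairs with Itgb1 to bind type IV collagen, was lowered by 1.36 on day 6 (-1.36 ± 0.28).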

How the data were processed

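The submitters extracted total RNA from left ventricle kept in RNAlater (Qiagen RNeasy Fibrous Tissue Mini kit), amplified it with Illumina TotalPrep and labelled it with Cy3, per the labels. BeadStudio 3.3 and GenomeStudio are named in the submitters' processing notes, with no step given to either. For each array the deposited tables, 1 per day, give a mean bead intensity per probe as scanned, a p-value for detection and, as an other kind of value, a bead number (per the file headers). These intensities were neither normalised nor background-subtracted, judged from the values. The deposited series matrix holds intensity that the authors normalised by a method not given in the sources used here, and served as an alternative. Of the day 6 arrays, 1 matched no sample and was not used.

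Intensities of each day were background-corrected (limma 3.58.1 in R 4.3.3, normexp with controls inferred from detection p, offset 16), scaled by quantile normalisation day by day, and put on a log2 scale. Ligated and sham arrays were compared with lmFit and eBayes, and days by contrasts in 1 fit of 6 group means, with Benjamini-Hochberg adjustment over all probes tested. The procedure was tested on simulated data with independent noise in each probe. These data held no shift shared by the probes of an array, so that test does not bear on scaling, brightness or position. Of 22523 probes 13793 have a symbol. The probe with the highest mean over the 3 days stands for a gene. Loxl1 alone has another probe. Arrays give no count depth. Beads per probe had a median of 30 to 42 on an array. What limits the precision is the number of arrays.

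The text gives values for every member called on any day or between days and for 8 fixed genes (Col1a1, Col1a2, Col3a1, Lox, Plod2, P4ha1, Serpinh1, Bmp1), ranges for other members, and up to 3 genes with the smallest p per pathway list and day. Members and lists were chosen with earlier results of these data known. No 2 arrays held identical values. Alternatives were no background correction, median scaling, joint normalisation of 35 arrays, the series matrix (floored at 16), no detection filter, detection on every array, eBayes with trend and robust, a shared spread, array weights, array brightness as a covariate, a replicate block, a position block on day 6, the other probe, and each array left out.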

Additional observations from a re-analysis of the deposited data

Results flagged for a closer look

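The ligation effect of 5 genes differed between days in the limma contrast and is given here as the signed difference on the log2 scale. The limits of BeadChip and position given above hold here too. Against day 6, the effect on day 42 was lower by -1.78 for Lox, -1.40 for Plod2, -1.27 for Col5a2, -1.23 for Col18a1 and -0.92 for Col5a1. Against day 1, it was lower by -1.55 for Lox, -1.29 for Plod2 and -1.20 for Col5a2.

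In 6 of 148 groups of arrays examined (4.05%), 1 array stood apart from the rest of its group by Dixon's criterion, and chance flags about 1 in 20 groups. Col27a1 read 6.71 in ligated replicate 4 of day 6, where the next array read 6.03. Col4a1 read 12.10 in sham replicate 4 of day 6, next to 11.75. Col5a2 read 9.63 in sham replicate 3 of day 6, below the next at 10.10. Loxl2 read 9.27 in sham replicate 4 of day 1, next to 8.89. Serpinh1 read 6.63 in ligated replicate 6 of day 1, below the next at 6.94, and 7.17 in sham replicate 5 of day 1, next to 6.89.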

How the results depend on the processing

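Of 38 called results, 9 passed in every alternative run: Col8a1, Col18a1, Col4a1, Loxl2, P4ha1, Pcolce and Plod2 on day 1, and Col8a1 and Col18a1 on day 6. The number of members called changed by more than 1.5 times as follows. Median scaling gave 2 on day 6 (10 as reported) and 18 between days 42 and 1 (3). Over all probes it called 132 of 8492 and 4708 of 8986 there, against 964 and 780 as reported. No detection filter gave 1 between days 42 and 1, with 460 of 22523 probes called. Array weights gave 2 between days 6 and 1 (0) and 9 between days 42 and 1. Over all 8986 probes they called 919 and 2557, against 78 and 780 as reported. Brightness as a covariate gave 8 on day 1 (14), 0 on day 42 (6), 1 between days 42 and 6 (5) and 0 between days 42 and 1. Over all probes it called 1205 of 8236, 3 of 8351, 214 of 8986 and 0 of 8986, against 2364, 1260, 663 and 780 as reported. With 1 array left out the counts ran from 10 to 16 on day 1, 5 to 11 on day 6, 2 to 7 on day 42, 0 to 0 between days 6 and 1, 2 to 7 between days 42 and 6, and 0 to 4 between days 42 and 1. The causes were not tested. Samples were not treated as paired by replicate number (4 of 17 pairs correlated above 0.1, range -0.27 to 0.34). So few pairs cannot exclude a pairing. With the replicate block the count was 5 on day 6 and 3 on day 42. Over all probes that fit called 341 of 8492 and 1212 of 8351, against 964 and 1260 as reported.

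Of the called results, only Col14a1 on day 42 under median scaling (-0.054) and Pcolce on day 42 under brightness (-0.079) changed sign. Among uncalled ones, median scaling gave Col14a1 0.062, Col3a1 0.17 and Col6a1 0.15 on day 1, Col6a1 -0.025 on day 6, and on day 42 Col18a1 -0.18, Col1a1 -0.46, Col1a2 -0.38, Col4a1 -0.13, Col6a1 -0.36, P4ha1 -0.36, P4hb -0.18, Plod1 -0.30, Plod2 -0.37, Plod3 -0.47 and Serpinh1 -0.27. Array weights gave Col3a1 0.13 on day 1, Col27a1 0.086 on day 6 and Col1a1 -0.10 on day 42. Brightness gave Col27a1 0.032 and Col6a1 0.064 on day 1 and, on day 42, Col1a2 -0.049, Col27a1 -0.12, P4ha2 0.19 and Serpinh1 -0.045. With 1 array left out, the sign changed within the ranges -0.19 to 0.15 (Col3a1) and -0.10 to 0.0016 (Col6a1) on day 1, -0.24 to 0.0038 (Col27a1), -0.058 to 0.28 (Col6a1), -0.0068 to 0.29 (P4ha1) and -0.12 to 0.0065 (Serpinh1) on day 6, and -0.081 to 0.22 (Col1a1), -0.0073 to 0.091 (Col1a2), -0.37 to 0.037 (P4ha2) and -0.0054 to 0.086 (Plod3) on day 42.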
